A study of Mus musculus with 36 samples.

Results

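The Ly6 surface antigens described here were Ly6a, Ly6c1, Ly6d, Ly6e, Ly6f, Ly6g and Ly6i, chosen by name with an earlier result of these data known: Ly6a and Ly6c1 had responded to interferon-gamma (IFN-γ) more strongly in Mreg culture than in ordinary macrophage culture. Their probes were found by the gene name in the scanner files, including the older symbol Ly6c for Ly6c1. Of the 7 genes, 6 had a probe, among 27597 genes named on the array. Ly6a, Ly6d, Ly6e, Ly6f and Ly6i had 1 probe each, Ly6c1 had 2, and no probe among those read carried the name Ly6g. The levels in Mreg, Mreg_no IFN-γ, MΦ_IFN-γ and MΦ_M0 cells chose the genes, and comparisons among those 4 groups are given below as values with no test.

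The 36 arrays held RNA from 12 groups of mouse cells with 3 arrays each, numbered 1 to 3 in the labels and called series numbers here. All groups but Mreg_unpurified started from bone-marrow monocytes that had been sorted as CD11b+ Ly6C+ Ly6G-. The Mreg (regulatory macrophage) cultures received 5 ng/ml M-CSF with 10% fetal calf serum and 10% human AB serum for 6 days. Of these, Mreg_+LPS cells then had 25 ng/ml IFN-γ and 100 µg/ml LPS (the amount as the labels give it) for 24 h, Mreg and Mreg_unpurified cells had 25 ng/ml IFN-γ, and Mreg_no IFN-γ cells had no stimulus. Mreg_unpurified cells came from adherent mononuclear cells of bone marrow, spleen and blood. The MΦ cultures received 20 ng/ml M-CSF with 10% fetal calf serum. MΦ_M1 cells had IFN-γ and LPS at the amounts above, MΦ_M2b cells had IFN-γ on dishes coated with human immunoglobulin, MΦ_IFN-γ cells had IFN-γ alone, MΦ_M2a cells had 20 ng/ml IL-4, MΦ_M2c cells had 1e-07 M dexamethasone and MΦ_M0 cells had no stimulus. MΦ_M0 and Mreg_no IFN-γ cells are recorded with 6 days of culture and 0 h of stimulus. Comparisons of them with stimulated cells may therefore also differ by 24 h of culture. Mo-DC cells were grown with 20 ng/ml GM-CSF and 20 ng/ml IL-4 and then had IFN-γ, and the group named Monocytes held sorted cells without culture. Nothing in the labels tells separate cultures or animals from repeats of one, so the p-values measure the spread between these arrays, which may be technical. In such mixed RNA, fewer cells of a type and less RNA per cell cannot be told apart.

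Ly6 proteins are small, disulphide-rich domains held on the outer cell membrane by a glycosylphosphatidylinositol anchor. Several are encoded side by side in a cluster on mouse chromosome 15, and interferons are known inducers of some of them in leukocytes. They serve mainly as markers in immunology: Ly6C on inflammatory monocytes, Ly6G on neutrophils, and Ly6A (Sca-1) on haematopoietic stem cells and activated lymphocytes.

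The probes lay on chromosome 15 in the build of the array files (mm8). The Ly6d probe was at chr15:74589376-74589435, the Ly6e probe at chr15:74786292-74786351, the Ly6i probe at chr15:74810293-74810352, the Ly6a probe at chr15:74822378-74822437 and the Ly6f probe at chr15:75099287-75099347. Of the 2 probes named Ly6c, the first carried the accession NM_010741 and lay at chr15:74872537-74872596, and the second carried D86232 and lay at chr15:74935462-74935520, 62925 bases away. In the RefSeq gene table (GRCm38.p6) the genes run in the order Ly6e, Ly6i, Ly6a, Ly6c1, Ly6c2, Ly6a2, Ly6g, Ly6g2 and Ly6f, so the D86232 probe lay on the side of the NM_010741 probe on which Ly6c2 lies. No probe carried the name Ly6c2. The windows before the Ly6c1 and Ly6c2 starts begin at chr15:75048838 and chr15:75111972 in GRCm38.p6, about as far apart as the 2 probes. By position the D86232 probe thus lay near Ly6c2, although its name does not tell which Ly6c gene it reads. The values of both probes are given. The D86232 probe was the brighter and stands for Ly6c1 in all counts and wherever no probe is named. Values given so for Ly6c1 may be those of Ly6c2.

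The stretches of 30 bases shown here let the Ly6a probe be set beside the NM_010741 probe, its closest match among the member probes, and show how the D86232 probe begins. Capitals mark the bases at which the Ly6a and NM_010741 probes differ.
Ly6a probe, bases 9 to 38: atagaagCtccaaGgtgggAGtagtgtgtg
Ly6c1 NM_010741 probe, bases 29 to 58: atagaagGtccaaTgtgggGAtagtgtgtg
Ly6c1 D86232 probe, bases 1 to 30: tattatactatcaccatccacacataagta
The Ly6a and NM_010741 probes aligned over 38 bases of their 60, with 84.2% of the aligned bases identical and 4 differences within the stretch shown. The 2 Ly6c probes aligned over only 9 bases. Ly6 genes are close paralogs, so transcripts of a neighbour may add to any of these signals; that was not tested.

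RefSeq start sites with upstream sequence were given for Ly6c1, Ly6c2, Ly6f and Ly6g. The 250 bases before the outermost start are shown for Ly6c1, Ly6c2 and Ly6f because these promoters belong to genes, or to neighbours of genes, whose levels moved together below (build GRCm38.p6, not the build of the probes; RefSeq). Capitals mark GAGGAAGT, a core sequence of the myeloid factor PU.1.
Ly6c1, chr15:75048838-75049087, minus strand: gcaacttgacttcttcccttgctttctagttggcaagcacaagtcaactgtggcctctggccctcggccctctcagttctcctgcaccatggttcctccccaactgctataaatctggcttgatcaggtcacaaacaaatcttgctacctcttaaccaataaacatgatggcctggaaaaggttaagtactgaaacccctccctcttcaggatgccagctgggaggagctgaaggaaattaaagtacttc
Ly6c2, chr15:75111972-75112221, minus strand: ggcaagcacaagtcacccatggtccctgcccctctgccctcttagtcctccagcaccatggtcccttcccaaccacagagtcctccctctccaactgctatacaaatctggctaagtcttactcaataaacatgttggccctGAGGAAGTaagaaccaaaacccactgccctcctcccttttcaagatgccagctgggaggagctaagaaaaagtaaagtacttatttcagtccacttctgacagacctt
Ly6f, chr15:75268171-75268420, plus strand: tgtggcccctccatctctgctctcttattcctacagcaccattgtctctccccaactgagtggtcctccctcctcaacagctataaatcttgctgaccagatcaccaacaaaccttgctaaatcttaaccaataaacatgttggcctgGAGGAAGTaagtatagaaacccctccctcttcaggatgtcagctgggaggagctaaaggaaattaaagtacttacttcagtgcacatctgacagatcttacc
The Ly6c1 and Ly6f windows aligned over 200 bases with 85% identical. GAGGAAGT was found 1 time in the Ly6c2 window, 1 time in the Ly6f window and 0 times in the Ly6c1 window shown, against 2.44% of the 32851 RefSeq windows of this length holding it on either strand. RefSeq gives Ly6c1, Ly6c2 and Ly6g a second start each. The window of the other Ly6c1 start (chr15:75048664-75048913) held GAGGAAGT 1 time, that of the other Ly6c2 start 2 times and each Ly6g window 1 time, so every one of the 4 genes had the letters before at least 1 start. Neither the interferon-gamma activated sequence TTCNNNGAA, present in 7.02% of all windows, nor the core of the interferon-stimulated response element (GAAA, any 2 bases, GAAA), present in 2.98%, was found on either strand of the 7 windows of these genes. These matches describe the letters of these windows.

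Each level below is the log2 intensity of a probe after subtraction of its array's 75th percentile, in log2 units; 0 is the 75th percentile of the array. The 75th percentile of the arrays lay between 320.0 and 648 intensity units, and 50.1 to 57.6% of the probes of an array were well above background. The arrays stood on 9 slides of 4 arrays. Monocytes, MΦ_M0, MΦ_M1 and MΦ_M2a cells of a series number shared a slide, Mo-DC, MΦ_IFN-γ, MΦ_M2b and MΦ_M2c cells shared another, and the 4 Mreg cultures shared the third. A comparison between a Mreg culture and any other group therefore crossed slides, and slide and culture cannot be told apart there. The comparisons of MΦ_IFN-γ with MΦ_M0, of MΦ_M1 with MΦ_IFN-γ and of MΦ_M2c with MΦ_M0 crossed slides too. Slide and stimulus cannot be told apart in them. The IFN-γ and LPS comparisons in Mreg culture lay within slides. The differences of the IFN-γ and LPS responses therefore set a comparison within slides against one across slides. Macrophage markers (Adgre1, Csf1r, Cd68, Mertk, Fcgr1, Itgam and Lyz2) were well above background on all 3 arrays for 7 of 7 genes in 10 groups and for 6 of 7 in Mreg_unpurified cells (without Adgre1) and Monocytes (without Mertk). Ly6g itself, the antigen used to exclude neutrophils from the sort, could not be checked here.

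The arrays of series number 2 stood apart in several groups. The array of this number was the lowest of its group for 5 of the 6 measured members in Mreg cells, for 6 of 6 in Mreg_unpurified cells, for 5 of 6 in Mreg_+LPS cells and also for 5 of 6 in MΦ_M2a cells. It was the lowest for 2 of 6 in Mreg_no IFN-γ cells and for 0 or 1 of 6 in each of the other groups. The array of series number 2 minus the mean of the other arrays was, for Ly6a, -2.03 log2 units in Mreg cells, -1.13 in Mreg_unpurified cells, -1.86 in Mreg_+LPS cells, -0.86 in MΦ_M2a cells and -0.73 in Mreg_no IFN-γ cells. The array of series number 2 of Mreg_no IFN-γ shared a slide with those of the other Mreg cultures. Of 15 genes of the IFN-γ receptor pathway and its feedback, the array of series number 2 was the lowest for 10 in Mreg cells, 6 in Mreg_unpurified cells and 9 in Mreg_+LPS cells. It was also the lowest for 9 in Mo-DC cells, 8 in Monocytes and 7 in MΦ_M2a cells, and for 0 to 5 in the rest. The median difference of these genes from the other arrays was -0.14 log2 units in Mreg cells, -0.0092 in Mreg_unpurified cells and -0.19 in Mreg_+LPS cells. It was -0.13 in Mo-DC cells, -0.097 in Monocytes and -0.12 in MΦ_M2a cells. The share of all genes with this array lowest was not counted. Values without series number 2 are given beside the printed results of members where leaving it out ended a call or moved the difference by over 1.5 times to or from at least 0.3 log2 units. The part of the slide was not tested.

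**Figure D1:**
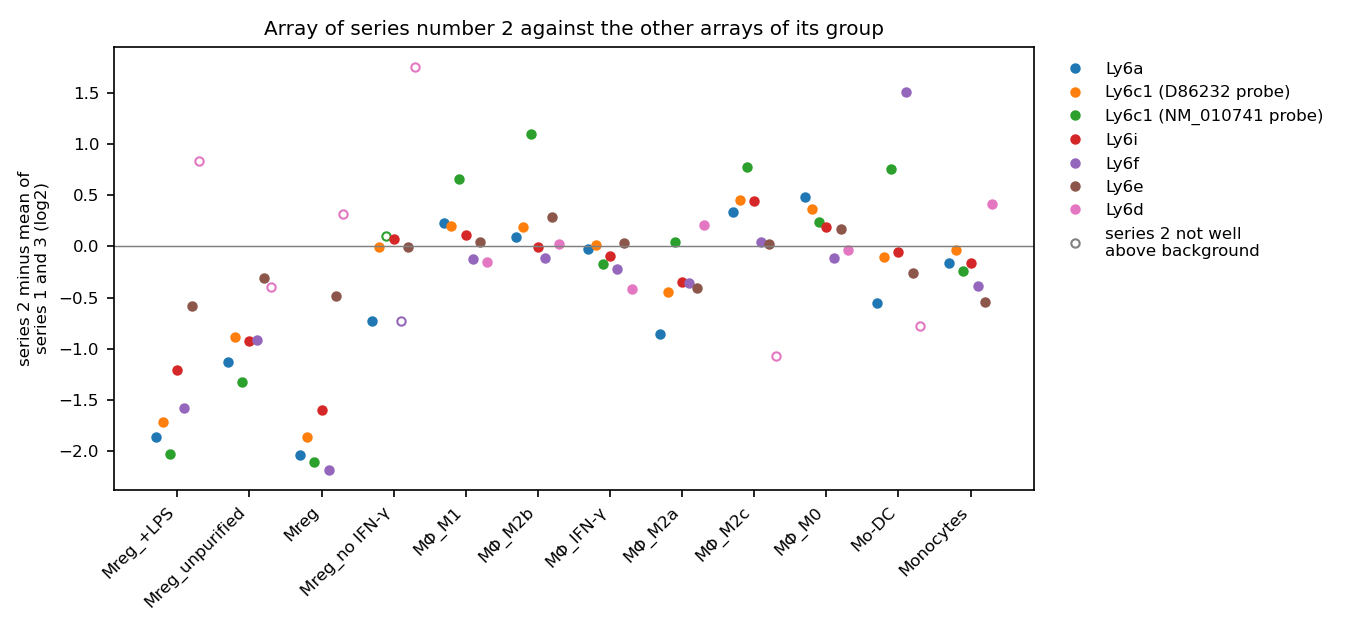
Each point is the level of a member on the array of series number 2 minus the mean of the arrays of series numbers 1 and 3 of the same group (vertical axis, log2 units), for the 12 groups along the horizontal axis; open points were not well above background on the array of series number 2. In Mreg, Mreg_unpurified and Mreg_+LPS all probes but that of Ly6d lie below 0, down to -2.18 for Ly6f in Mreg. The open points of Ly6d lie at 0.32 in Mreg, 0.83 in Mreg_+LPS and -0.39 in Mreg_unpurified. In MΦ_M2a both Ly6d and the NM_010741 probe lie above 0 and the others below it.

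Ly6a was high in all macrophages that had received IFN-γ and lowest in the unstimulated Mreg culture. Its level was 6.05, 3.67 and 5.35 in Mreg cells, 5.78, 4.30 and 5.07 in Mreg_unpurified cells and 5.93, 3.84 and 5.46 in Mreg_+LPS cells. It was 6.48, 6.50 and 6.06 in MΦ_M1 cells, 6.56, 6.39 and 6.03 in MΦ_M2b cells and 6.34, 6.10 and 5.91 in MΦ_IFN-γ cells. All 18 of these arrays lay above every array of the other groups. Among the groups without IFN-γ, Ly6a was -4.45, -4.57 and -3.24 in Mreg_no IFN-γ cells and 0.69, 2.00 and 2.36 in MΦ_M0 cells. It was 0.68, -0.19 and 0.66 in MΦ_M2a cells, 1.83, 2.92 and 3.35 in MΦ_M2c cells and 3.34, 2.70 and 2.40 in Monocytes. Mo-DC cells, although treated with IFN-γ, lay at 3.29, 1.60 and 1.02, within the range of the groups without it. By mean level the order was MΦ_M1, MΦ_M2b, MΦ_IFN-γ, Mreg_+LPS, Mreg_unpurified, Mreg, Monocytes, MΦ_M2c, Mo-DC, MΦ_M0, MΦ_M2a and Mreg_no IFN-γ. Neighbours in this order overlapped in their ranges except Mreg over Monocytes, MΦ_M0 over MΦ_M2a and MΦ_M2a over Mreg_no IFN-γ.

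Ly6c1, read by the D86232 probe, followed the same order except for Monocytes, which headed it. This antigen was also a gate of the sort, so its level in Monocytes cannot be told apart from the choice of cells. Its level was 7.68, 5.56 and 7.17 in Mreg cells against -2.11, -1.56 and -0.99 in Mreg_no IFN-γ cells. It was 7.94, 7.85 and 7.74 in MΦ_IFN-γ cells against 2.95, 4.14 and 4.59 in MΦ_M0 cells. Monocytes lay at 8.87, 8.60 and 8.39, and their range did not overlap with that of the next group, MΦ_M1, at 8.22, 8.26 and 7.91. The probe was among the brightest of the array, with up to 36.6% of the brightest signal, and no spot on any array was saturated.

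The NM_010741 probe set the uncultured cells further apart from all cultures. Its level was 7.05, 6.28 and 6.00 in Monocytes, and the next group by mean, MΦ_M2b, lay at 0.78, 2.74 and 2.51. It was -0.20, -3.04 and -1.67 in Mreg cells, lower than in MΦ_IFN-γ cells at 1.46, 1.50 and 1.89 with no overlap. In Mreg_no IFN-γ cells the probe stood below background on all 3 arrays. The levels of the 2 Ly6c probes had a correlation of 0.851 over the 12 group means, which share arrays and scaling. At like levels of the D86232 probe the NM_010741 probe could differ between cultures: series number 2 of Mreg had 5.56 and -3.04, and series number 3 of MΦ_M2c had 5.52 and 0.19. Whether this exceeds the error of the probes was not tested.

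**Figure D2:**
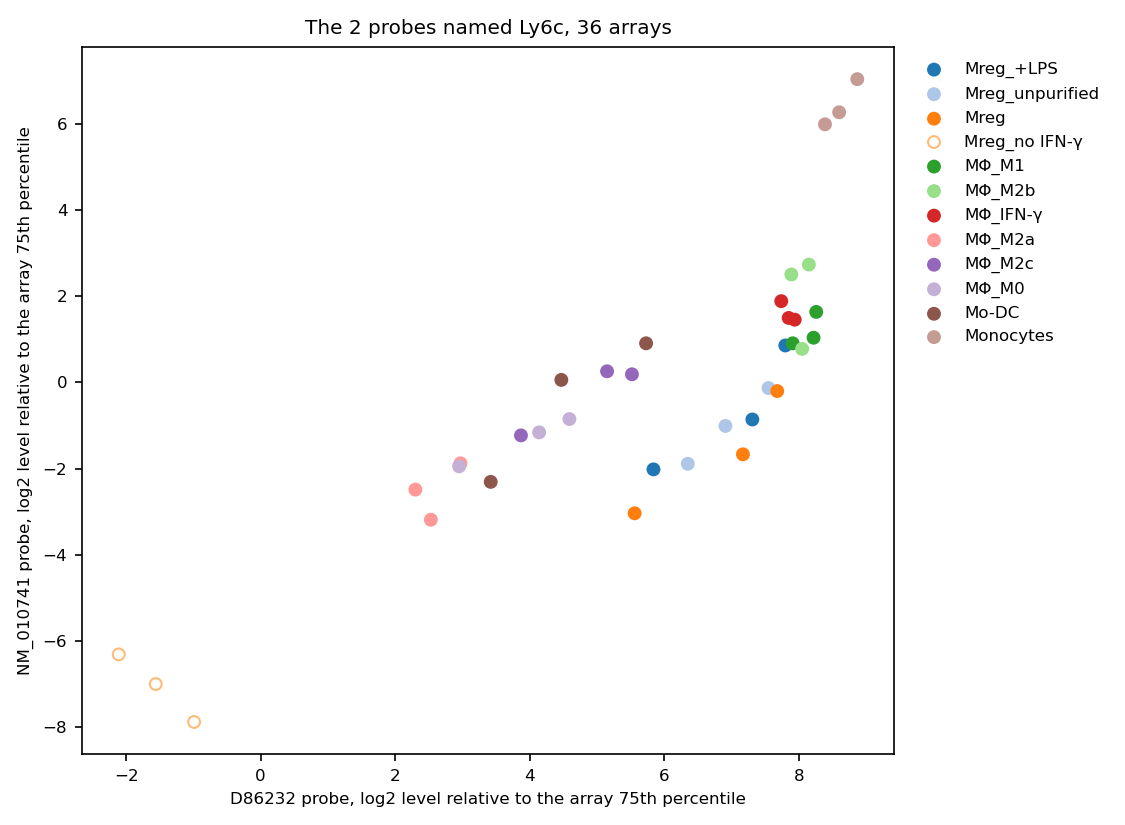
Level of the NM_010741 probe (vertical axis) against that of the D86232 probe (horizontal axis), both log2 relative to the array's 75th percentile, for 36 arrays coloured by group; open points were not well above background for the NM_010741 probe. Monocytes lie at the upper right, Mreg_no IFN-γ at the lower left.

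Ly6i and Ly6f, less studied members of the cluster, shared this pattern at lower signal. Ly6i was 1.59, -0.31 and 0.96 in Mreg cells against -3.26, -3.18 and -3.24 in Mreg_no IFN-γ cells, and 2.00, 1.82 and 1.81 in MΦ_IFN-γ cells against -2.43, -1.65 and -1.24 in MΦ_M0 cells. Ly6f was 0.76, -1.75 and 0.09 in Mreg cells and was below background on all 3 arrays of Mreg_no IFN-γ cells. In MΦ_IFN-γ cells it was 1.23, 0.78 and 0.77, against -4.03, -3.65 and -3.05 in MΦ_M0 cells. The highest Ly6f level of all groups was in MΦ_M1 cells, at 2.79, 2.23 and 1.91, and this range did not overlap with that of the next group, Mreg_+LPS.

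Ly6e, a broadly expressed antigen of thymocytes and many other cells, varied least. Its group means ran from 5.72 ± 0.15 in MΦ_IFN-γ cells to 3.00 ± 0.06 in Mreg_no IFN-γ cells (SD, n = 3 each). The 2 lowest groups, Mo-DC at 4.10, 3.55 and 3.52 and Mreg_no IFN-γ at 3.06, 2.99 and 2.94, did not overlap with any other group or with each other.

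Ly6d, known as an antigen of early B-lineage cells, keratinocytes and some T cells, had another order. It was highest in Monocytes, at -1.61, -0.89 and -0.99, and was well above background on every array of the MΦ_M1, MΦ_M2b, MΦ_IFN-γ, MΦ_M2a and MΦ_M0 groups, with group means between -3.31 and -4.40. It was well above background on 1 of 3 arrays of MΦ_M2c and on none of the arrays of Mo-DC and the 4 Mreg cultures. Over all groups, those with and without IFN-γ were mixed in the order of Ly6d means, with Monocytes at its head and groups below background at its end. Among the MΦ groups the means with IFN-γ (from -3.31 in MΦ_M1 to -3.90 in MΦ_M2b) were above those without it (from -4.07 in MΦ_M2a to -6.46 in MΦ_M2c). The ranges of MΦ_M2b and MΦ_M2a overlapped. Over the 12 group means the correlation of Ly6d with the other members, taken with the D86232 probe for Ly6c1, ran from 0.26 with Ly6a to 0.51 with Ly6i, while that of Ly6a with Ly6c1, Ly6e, Ly6f and Ly6i ran from 0.87 to 0.94. With the NM_010741 probe the order was the other way, at 0.76 for Ly6d and 0.63 for Ly6a. These are descriptions over 12 means of the same 36 arrays.

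**Figure D3:**
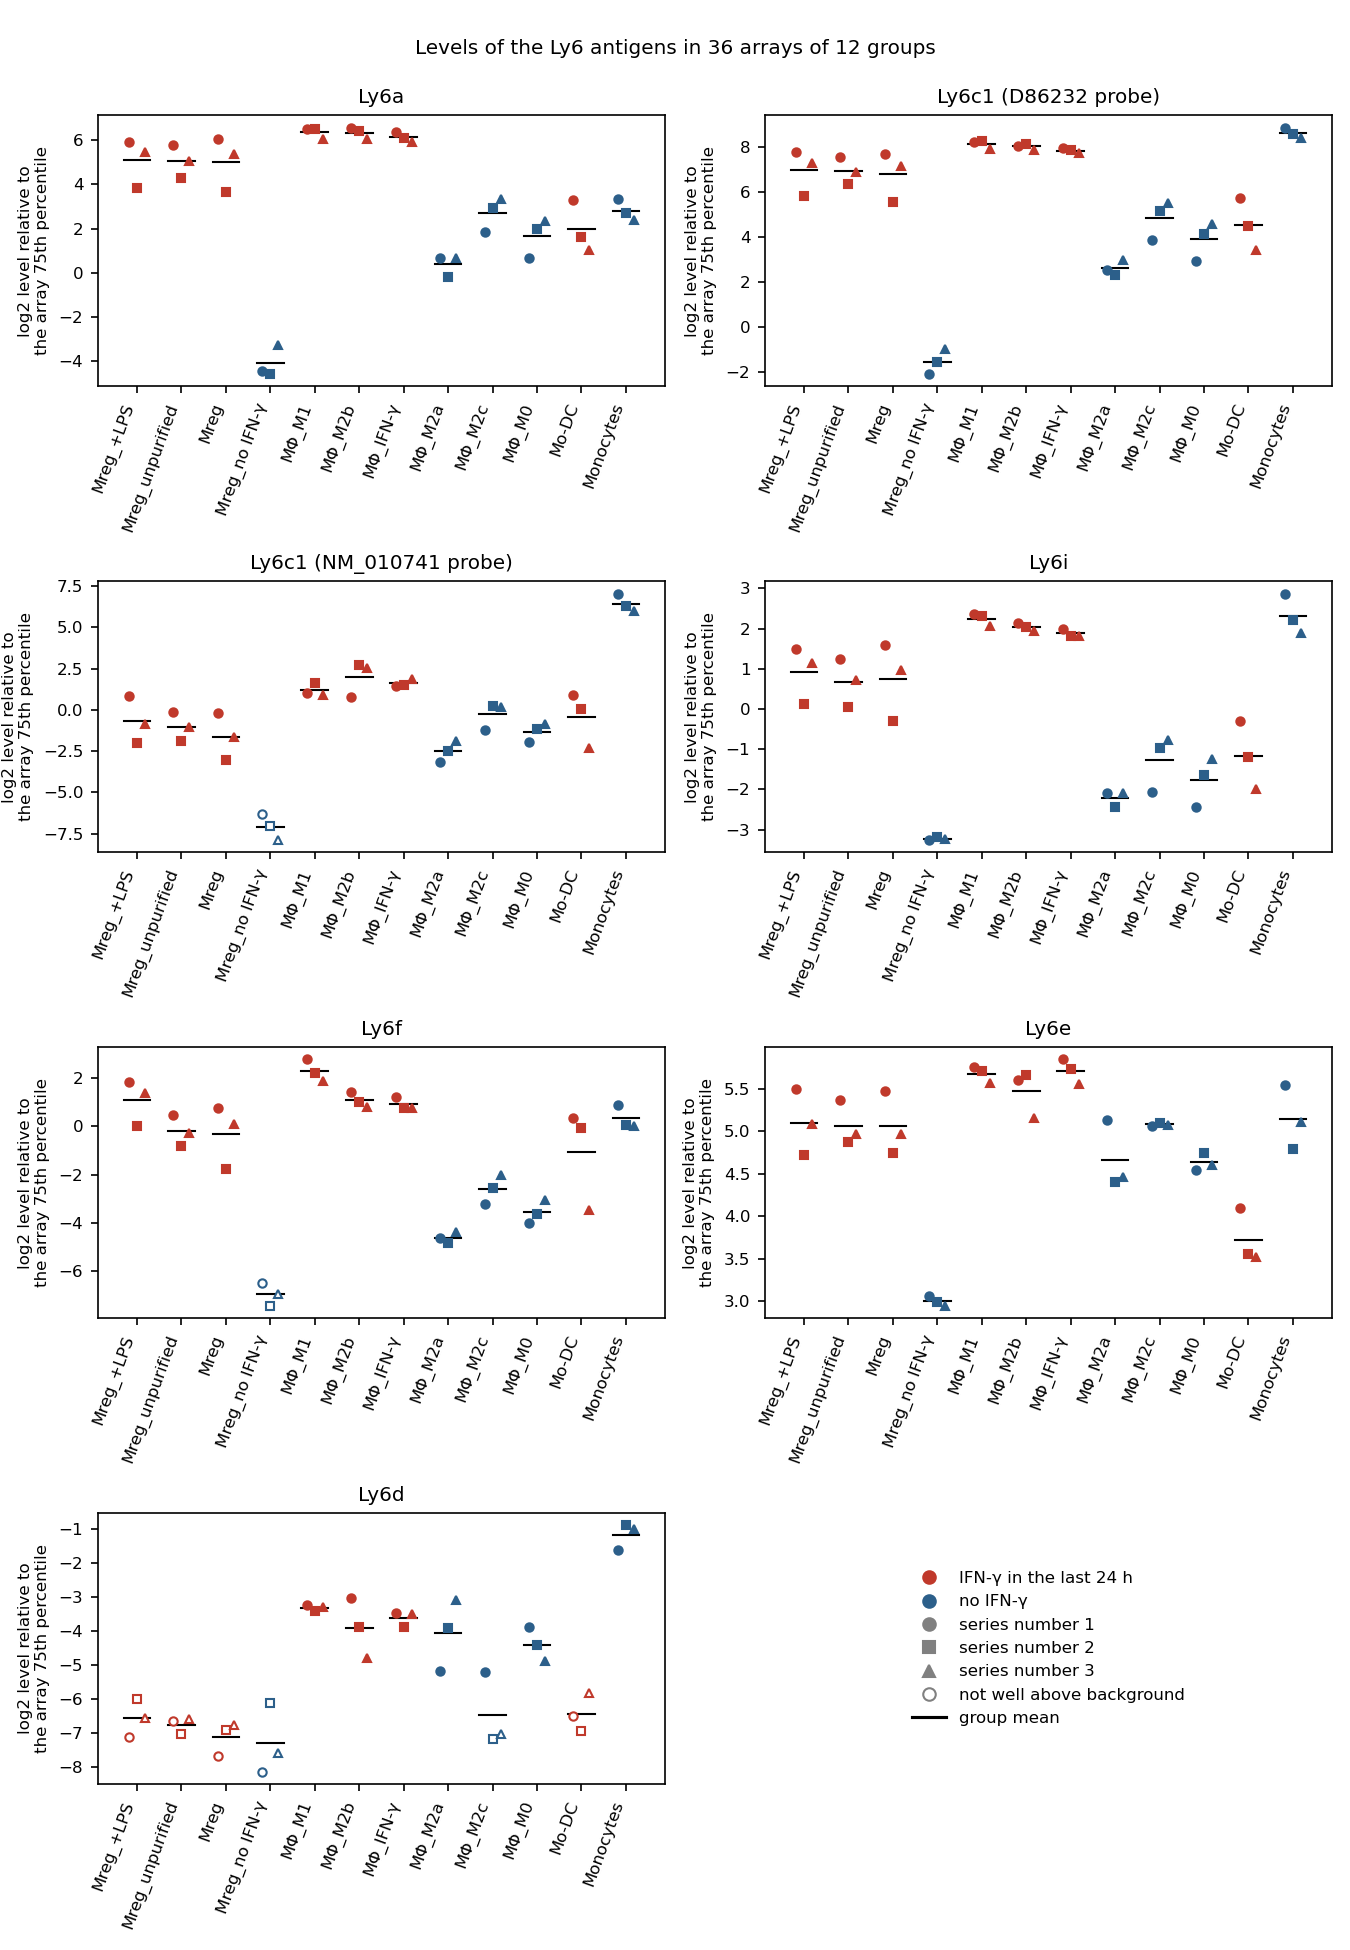
Level of each probe (vertical axis, log2 relative to the array's 75th percentile; scales differ between panels) on each of the 36 arrays, by group along the horizontal axis; black lines are group means, symbols give the series number and open symbols were not well above background. Mreg_no IFN-γ has the lowest mean in every panel but that of Ly6d, where it, the other Mreg cultures and Mo-DC are below background and have no order.

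The comparison that chose the genes is that of IFN-γ-treated with untreated cells in the 2 cultures, and its values are a description. In Mreg culture Ly6a was 9.11 ± 0.61 log2 units higher with IFN-γ (log2 difference ± SE of the fit, n = 3 each; 552-fold) and Ly6c1 8.36 ± 0.56 (328-fold). In M-CSF culture Ly6a was 4.43 ± 0.61 higher with IFN-γ (21.6-fold) and Ly6c1 3.95 ± 0.56 (15.5-fold). The difference between the 2 responses was 4.68 ± 0.86 log2 units for Ly6a and 4.41 ± 0.79 for Ly6c1. Without series number 2 the response in Mreg culture was 9.54 for Ly6a and 8.97 for Ly6c1, and the difference of the responses 4.94 for Ly6a and 4.91 for Ly6c1. With background corrected by a model of the spot and its surround (normexp), which compresses low levels, they were 2.63 for Ly6a and 3.69 for Ly6c1.

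The levels behind these differences show where the 2 cultures parted. With IFN-γ, the difference of Mreg minus MΦ_IFN-γ cells was -1.1 log2 units for Ly6a and -1.04 for Ly6c1, and without series number 2 it was -0.43 and -0.41. Without IFN-γ, the difference of Mreg_no IFN-γ minus MΦ_M0 cells was -5.77 log2 units for Ly6a (54.7-fold lower) and -5.45 for Ly6c1 (43.6-fold lower). For Ly6a and the D86232 probe of Ly6c1, the gap between the cultures was larger without IFN-γ than with it. The NM_010741 probe was 9.53-fold lower in Mreg than in MΦ_IFN-γ cells, and at least 20.4-fold lower in Mreg_no IFN-γ than in MΦ_M0 cells. With IFN-γ, Ly6e was 1.57-fold lower in Mreg cells, Ly6i 2.19-fold and Ly6f 2.34-fold. Without series number 2 the means there were 1.28 and 1.91 for Ly6i and 0.42 and 1.00 for Ly6f. Ly6d was at least 3.78-fold lower with IFN-γ, and its 2 bounds cannot be ordered. In the comparison without IFN-γ, Ly6e was 3.11-fold lower, Ly6i 2.74-fold lower, Ly6f at least 4.27-fold lower and Ly6d at least 2.42-fold lower in Mreg_no IFN-γ cells. The arrays of the 2 untreated groups did not overlap for any of the 6 measured members, all lower in Mreg_no IFN-γ cells; over all genes, 21.6% were lower there with no overlap.

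The NM_010741 probe of Ly6c1 gave smaller responses, at least 16.4-fold in Mreg culture and 7.67-fold in M-CSF culture; the first is a bound because the probe was below background without IFN-γ. Ly6f was at least 41.3-fold higher with IFN-γ in Mreg culture and 22.6-fold higher in M-CSF culture. Ly6i was 15.7-fold higher in Mreg culture and 12.5-fold higher in M-CSF culture, a difference of 0.33 ± 0.62 log2 units (0.79 without series number 2), and Ly6e was 4.18-fold higher in Mreg culture and 2.12-fold higher in M-CSF culture. Ly6d was below background in both Mreg groups and 1.72-fold higher with IFN-γ in M-CSF culture, where the ranges overlapped. Arrays with IFN-γ lay above those without it, with no overlap, for 5 of the 6 measured members in either culture; over all genes this was so for 14.7% in Mreg culture and 22.2% in M-CSF culture. The difference of the responses passed an adjusted p of 0.05 for 1.65% of all genes. Nothing is read from these shares, since the genes were chosen on these contrasts.

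Values of the IFN-γ pathway in the same arrays are given for Irf1, Socs1 and Ifngr1, again without a test. Over the 15 pathway genes the median difference with IFN-γ was 1.43 log2 units in Mreg culture and 1.04 in M-CSF culture. The median of the difference of the responses was -0.09. Over all genes these medians were -0.06, -0.01 and -0.06. Irf1, a transcription factor induced by IFN-γ, was 4.98 log2 units higher with IFN-γ in Mreg culture and 3.52 higher in M-CSF culture. Its mean level was 8.15 in Mreg and 8.23 in MΦ_IFN-γ cells, and without IFN-γ it was 3.17 in Mreg_no IFN-γ and 4.71 in MΦ_M0 cells. Socs1, a feedback inhibitor of the pathway, was 5.24 log2 units higher with IFN-γ in Mreg culture and 6.14 higher in M-CSF culture. Without series number 2 its means were 5.30 in Mreg and -0.46 in Mreg_no IFN-γ cells. They were 5.85 in MΦ_IFN-γ and -0.28 in MΦ_M0 cells. The receptor chain Ifngr1 averaged 6.26 in Mreg_no IFN-γ and 6.04 in MΦ_M0 cells.

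**Figure D4:**
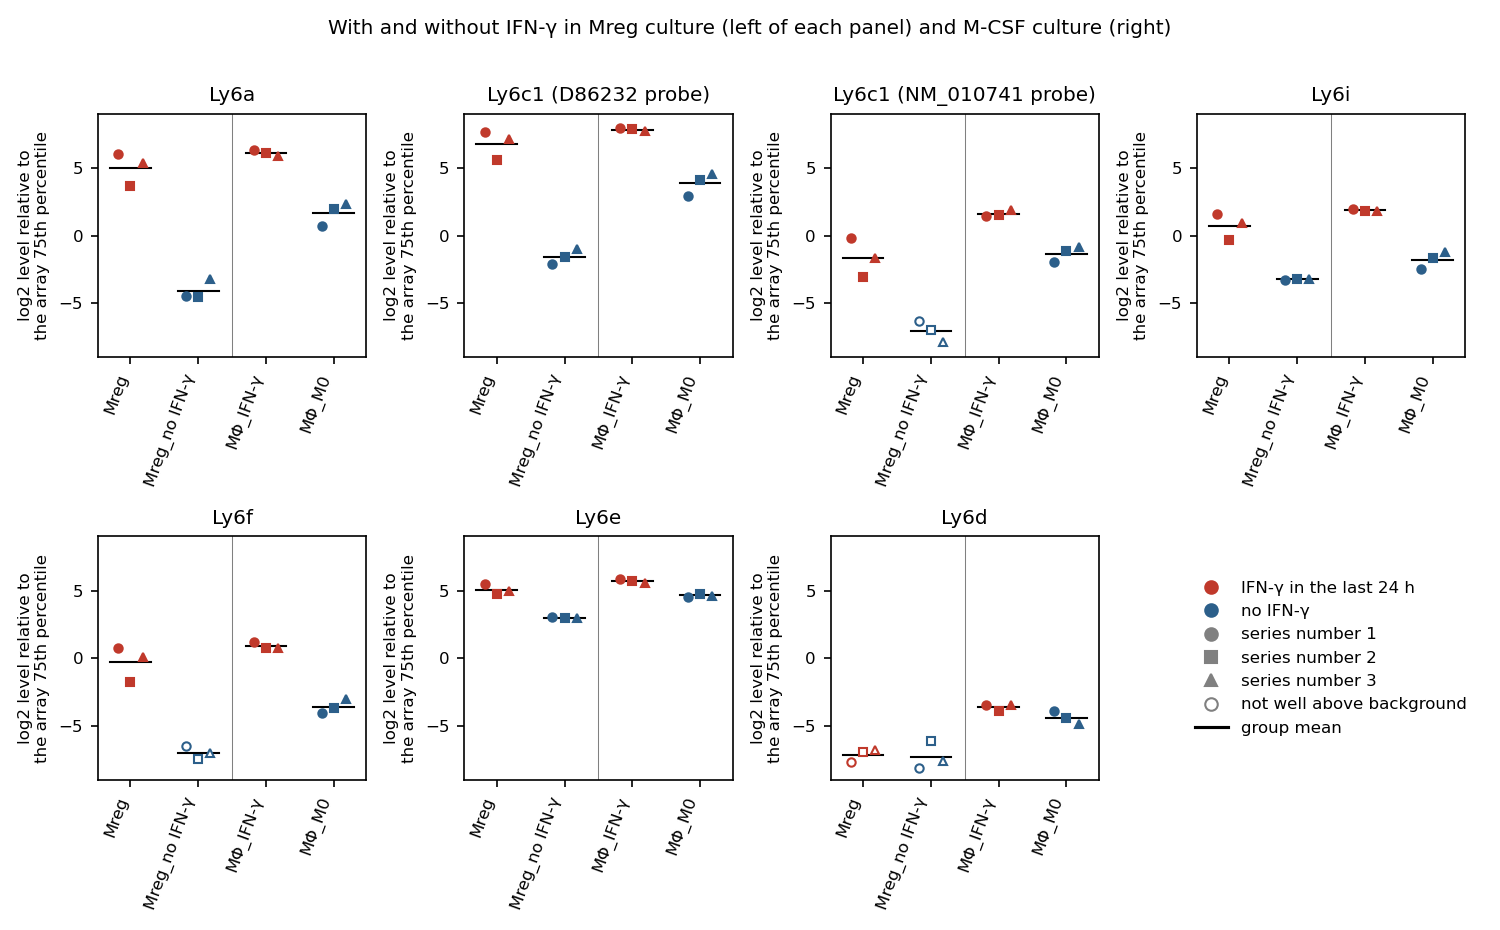
Level of each probe (vertical axis, log2 relative to the array's 75th percentile, same scale in all panels) in Mreg and Mreg_no IFN-γ cells to the left of the grey line and in MΦ_IFN-γ and MΦ_M0 cells to its right; symbols give the series number, black lines the group means, and open symbols were not well above background. For Ly6a the means with IFN-γ are 5.02 in Mreg and 6.12 in MΦ_IFN-γ, and those without are -4.09 in Mreg_no IFN-γ and 1.68 in MΦ_M0.

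A comparison of IFN-γ-treated with untreated M-CSF macrophages that used none of those arrays was MΦ_M1 against MΦ_M2a, although LPS and IL-4 differed too. Ly6a, Ly6c1, Ly6f, Ly6i and Ly6e were higher in MΦ_M1 cells. Ly6a was 5.96 ± 0.61 log2 units higher (62.3-fold, adjusted p = 3.73e-09), with 6.48, 6.50 and 6.06 in MΦ_M1 cells against 0.68, -0.19 and 0.66 in MΦ_M2a cells. Ly6f was 6.94 ± 0.68 higher (122-fold, adjusted p = 1.49e-09), with 2.79, 2.23 and 1.91 in MΦ_M1 cells against -4.63, -4.86 and -4.39 in MΦ_M2a cells. Ly6c1 was 5.53 ± 0.56 higher (46.1-fold, adjusted p = 2.58e-09), and its NM_010741 probe 3.72 ± 0.77 higher (13.1-fold, adjusted p = 0.000162). Ly6i was 4.45 ± 0.44 higher (21.9-fold, adjusted p = 1.78e-09) and Ly6e 1.02 ± 0.22 higher (2.02-fold, adjusted p = 0.000324). Ly6d, at -3.22, -3.41 and -3.29 in MΦ_M1 cells against -5.18, -3.92 and -3.09 in MΦ_M2a cells, did not pass (adjusted p = 0.246). In all, 5 of 6 members rose, against 26.7% of all genes tested (a further 27.7% fell), and the members' median difference was 4.99 log2 units against 0.05 over all genes. The markers of Ly6C-high monocytes named below moved the other way, with a summed linear level of 13.7 to 22.5 times the 75th percentile in MΦ_M1 cells and 403 to 506 in MΦ_M2a cells; Chil3, one of them, is known to be induced by IL-4. Their part in the difference was not tested.

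Adding LPS to IFN-γ changed no member past the threshold in either culture. In Mreg culture 0 of 6 passed, against 57.4% of all genes, and in M-CSF culture 0 of 6, against 51.2%. At an unadjusted limma p under 0.05 the counts were 1 in Mreg culture, namely Ly6f, and 0 in M-CSF culture. Ly6f was 1.87, 0.04 and 1.38 in Mreg_+LPS cells against 0.76, -1.75 and 0.09 in Mreg cells, a difference of 1.40 ± 0.68 log2 units (adjusted p = 0.0787). It was 2.79, 2.23 and 1.91 in MΦ_M1 cells against 1.23, 0.78 and 0.77 in MΦ_IFN-γ cells, a difference of 1.39 ± 0.68 (adjusted p = 0.0902). Within each series number the Mreg_+LPS array was above the Mreg array, and with the slide as a block the adjusted p for Mreg culture was 0.0416. It was 0.0287 without Mreg replicate 1, 0.0282 without Mreg_+LPS replicate 2, 0.426 without Mreg replicate 2 and 0.262 without series number 2. The difference between the LPS responses of the 2 cultures, tested as an interaction, passed for 0 of 6 members against 35.0% of all genes, and for Ly6f it was 0.02 ± 0.96 log2 units. Ly6a, Ly6c1, Ly6i and Ly6e had differences between -0.04 and 0.37 log2 units in both cultures, although with quantile normalization Ly6e turned to -0.46 and passed in Mreg culture. These differences depend on the scaling. The 75th percentile was 441 to 579 intensity units in Mreg and 320 to 343 in Mreg_+LPS arrays. It was 541 to 589 in MΦ_IFN-γ and 413 to 436 in MΦ_M1 arrays. Before scaling, the signals of these genes in Mreg culture were lower with LPS in every series number. The fits in Mreg and MΦ_IFN-γ cells reuse arrays of the comparison that chose the genes.

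Under IFN-γ with LPS, 3 members were lower in Mreg culture than in M-CSF culture, a comparison that uses none of the choosing arrays. Ly6d fell below background in Mreg_+LPS cells on all 3 arrays against -3.22, -3.41 and -3.29 in MΦ_M1 cells, at least 3.31-fold lower (adjusted p = 9.39e-06). With normexp background correction this Ly6d difference was -0.39 log2 units and did not pass (adjusted p = 0.371). Ly6i was 1.50, 0.12 and 1.15 in Mreg_+LPS cells against 2.36, 2.31 and 2.05 in MΦ_M1 cells, a difference of -1.32 ± 0.44 log2 units (adjusted p = 0.0123). Ly6e was 5.50, 4.72 and 5.09 in Mreg_+LPS cells against 5.76, 5.71 and 5.57 in MΦ_M1 cells, a difference of -0.58 ± 0.22 (adjusted p = 0.0292). Ly6a had a difference of -1.27 ± 0.61 (adjusted p = 0.0823), Ly6c1 one of -1.15 ± 0.56 (adjusted p = 0.0833) and Ly6f one of -1.21 ± 0.68 (adjusted p = 0.136). The NM_010741 probe of Ly6c1 differed by -1.87 ± 0.77 (adjusted p = 0.0405). Without series number 2 the means of that probe were 0.0013 in Mreg_+LPS and 0.98 in MΦ_M1 cells, and no test without it was run for this probe. Of all genes, 25.1% were lower in Mreg_+LPS cells at the threshold. The arrays did not overlap for any of the 6 members, all lower in Mreg_+LPS cells, against 26.8% of all genes. Without Mreg_+LPS replicate 2, the only member lower at the threshold was Ly6d, and Ly6i differed by -0.91 log2 units (adjusted p = 0.106) and Ly6e by -0.39 (adjusted p = 0.187). Without series number 2 in both groups, Ly6i differed by -0.88 (adjusted p = 0.198) and Ly6e by -0.37 (adjusted p = 0.300), while Ly6d kept its call; Ly6a then differed by -0.57, Ly6c1 by -0.51 and Ly6f by -0.72. The summed linear level of dendritic cell markers ran from 22.3 to 46.4 times the 75th percentile in Mreg_+LPS cells and from 5.54 to 15.4 in MΦ_M1 cells, and that of neutrophil markers from 6.26 to 19.1 in Mreg_+LPS cells and from 2.00 to 2.24 in MΦ_M1 cells. T and NK cell markers ran from 0.90 to 1.32 and from 0.55 to 0.67. Other lists were lower in Mreg_+LPS cells. Markers of Ly6C-high monocytes ran from 1.92 to 13.3 there and from 13.7 to 22.5 in MΦ_M1 cells. Those of plasmacytoid dendritic cells ran from 277 to 313 and from 369 to 452. Their part in the difference was not tested. Without Mreg_+LPS replicate 1 the call extended to Ly6a (-1.69, adjusted p = 0.0376) and Ly6c1 (-1.56, adjusted p = 0.0346).

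Mo-DC cells, grown in GM-CSF and IL-4, had lower levels of all 6 members than MΦ_IFN-γ cells although both had IFN-γ, against 25.2% of all genes. Ly6a was 3.29, 1.60 and 1.02 in Mo-DC cells against 6.34, 6.10 and 5.91 in MΦ_IFN-γ cells, a difference of -4.15 ± 0.61 log2 units (17.7-fold, adjusted p = 2.89e-06). Ly6c1 fell by 3.30 ± 0.56 (9.85-fold, adjusted p = 1.87e-05), and its NM_010741 probe fell by 2.06 ± 0.77 (adjusted p = 0.0280). Ly6i fell by 3.04 ± 0.44 (8.24-fold, adjusted p = 2.10e-06) and Ly6e fell by 2.00 ± 0.22 (3.99-fold, adjusted p = 3.35e-08). Ly6d was at least 3.35-fold lower (adjusted p = 8.95e-05), below background in Mo-DC cells, but with normexp correction its difference was -0.28 log2 units (adjusted p = 0.498), which leaves 5 of 6 members lower. Ly6f was 0.34, -0.06 and -3.46 in Mo-DC cells, and its difference of -1.98 ± 0.68 (adjusted p = 0.0172) rested on the third array: without Mo-DC replicate 3 it was -0.78 (adjusted p = 0.268). The summed linear level of dendritic cell markers (Flt3, Zbtb46, Itgax, Ccr7, Dpp4, Cd209a and Clec9a) ran from 261 to 283 times the 75th percentile in Mo-DC cells and from 11.5 to 30.6 in MΦ_IFN-γ cells; 6 of the 7 were well above background on all arrays of each group, with Cd209a below it on all. Markers of Ly6C-high monocytes ran from 545 to 583 in Mo-DC cells and from 50.4 to 63.6 in MΦ_IFN-γ cells, with 4 of 5 above background in each group. T and NK cell markers ran from 0.99 to 1.63 in Mo-DC cells and from 0.24 to 0.30 in MΦ_IFN-γ cells, with 7 of 9 and 3 of 9 above background. Neutrophil, progenitor, mast cell and stromal markers were also higher in Mo-DC cells. Other lists were lower there: macrophage markers ran from 856 to 938 in Mo-DC cells and from 1179 to 1279 in MΦ_IFN-γ cells. Plasmacytoid dendritic cell markers ran from 73.2 to 94.3 and from 102 to 120, and B-cell markers from 0.11 to 0.15 and from 0.56 to 0.60. The part of these markers in the difference was not tested. The MΦ_IFN-γ arrays took part in choosing the genes.

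**Figure D5:**
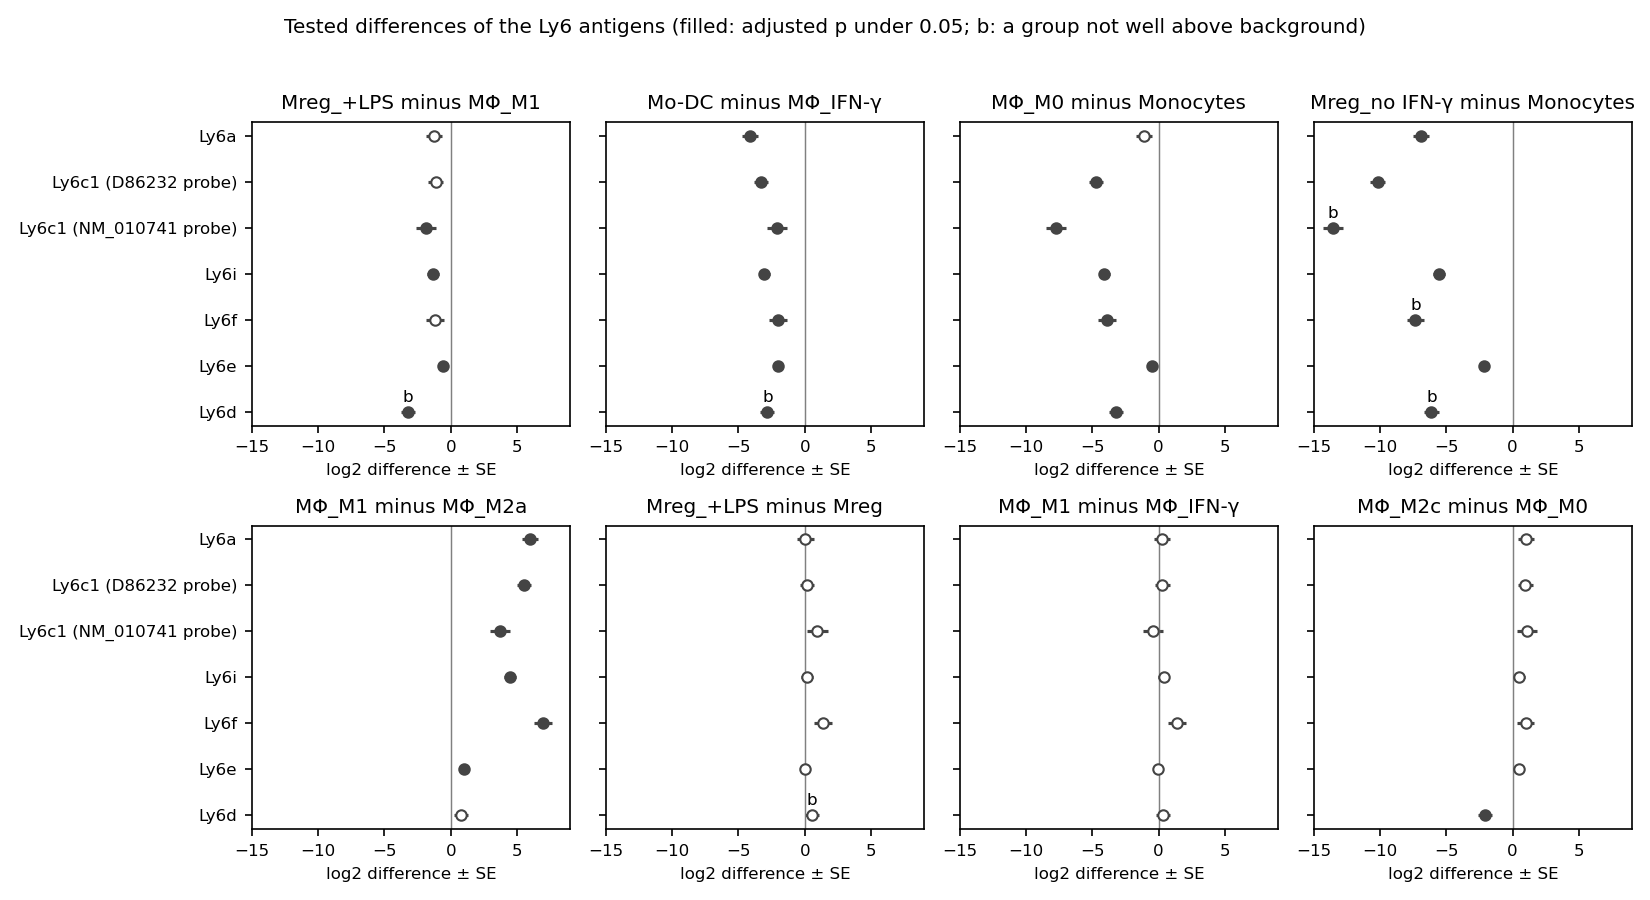
Log2 difference with its SE (horizontal axis, first-named minus second-named group, n = 3 each) of each probe (vertical axis) in 8 of the tested comparisons. Filled points passed an adjusted p of 0.05, and b marks a comparison in which 1 group was below background on all its arrays, where the fitted value is no bound. All points lie below 0 in the Mo-DC and Monocytes panels, and only Ly6d is filled in the dexamethasone panel.

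Most members were lower in cells cultured without IFN-γ than in Monocytes. In MΦ_M0 cells 5 of 6 fell, against 33.2% of all genes, and in Mreg_no IFN-γ cells 6 of 6, against 33.3%; each comparison shares one group with the choosing comparison, and both share the Monocytes arrays. Ly6c1 fell by 4.73 ± 0.56 log2 units in MΦ_M0 cells (26.5-fold, adjusted p = 2.85e-08) and fell by 10.18 ± 0.56 in Mreg_no IFN-γ cells (1157-fold, adjusted p = 5.43e-15). Its NM_010741 probe fell by 7.77 ± 0.77 in MΦ_M0 cells (218-fold) and was at least 4439-fold lower in Mreg_no IFN-γ cells. The Ly6C gate of the sort bears directly on these values. Ly6i fell by 4.10 ± 0.44 in MΦ_M0 cells (17.1-fold, adjusted p = 5.24e-09) and fell by 5.55 ± 0.44 in Mreg_no IFN-γ cells (46.9-fold, adjusted p = 1.06e-11). Ly6f fell by 3.91 ± 0.68 in MΦ_M0 cells (15.1-fold, adjusted p = 1.32e-05) and was at least 64.4-fold lower in Mreg_no IFN-γ cells (adjusted p = 2.43e-10). Ly6d fell by 3.24 ± 0.53 in MΦ_M0 cells (9.43-fold, adjusted p = 7.02e-06) and was at least 22.8-fold lower in Mreg_no IFN-γ cells (adjusted p = 8.19e-11). Ly6e fell by 0.52 ± 0.22 in MΦ_M0 cells (adjusted p = 0.0453), a call lost in 10 settings: without Monocytes replicate 1 the difference was -0.31 (adjusted p = 0.261), and with quantile normalization -0.42 (adjusted p = 0.0594). Without that call 4 of 6 members were lower in MΦ_M0 cells. Ly6e fell by 2.15 ± 0.22 in Mreg_no IFN-γ cells (adjusted p = 2.11e-09).

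Ly6a was 0.69, 2.00 and 2.36 in MΦ_M0 cells against 3.34, 2.70 and 2.40 in Monocytes, a difference of -1.13 ± 0.61 that did not pass (adjusted p = 0.109), but fell by 6.90 ± 0.61 in Mreg_no IFN-γ cells (120-fold, adjusted p = 1.05e-10). Neutrophil markers moved with these comparisons: of the 8 with a probe (S100a8, S100a9, Mpo, Elane, Camp, Ltf, Ngp and Cxcr2), 4 were well above background on all MΦ_M0 arrays, 2 on all Mreg_no IFN-γ arrays and 8 on all Monocytes arrays. Their summed linear level ran from 3.25 to 4.54 times the 75th percentile in MΦ_M0 cells, from 1.50 to 2.48 in Mreg_no IFN-γ cells and from 3224 to 3965 in Monocytes; Elane, Camp, Ltf, Ngp and Cxcr2 were below background on all Mreg_no IFN-γ arrays. The summed level of Ccr2, Plac8, Chil3, Cx3cr1 and F13a1, markers of Ly6C-high monocytes, ran from 10.19 to 14.5 in MΦ_M0 cells, from 14.95 to 19.7 in Mreg_no IFN-γ cells and from 984.7 to 1026 in Monocytes. Bone-marrow monocytes express some of these genes themselves. Markers of several other cell types were also higher in Monocytes, and those of some were lower. Progenitor markers (Kit, Cd34, Gata2 and Meis1), of which 4 of 4 were above background on all Monocytes arrays, had a summed level of 0.62 to 0.91 in MΦ_M0 cells, 0.21 to 0.40 in Mreg_no IFN-γ cells and 8.48 to 10.3 in Monocytes. Mast cell and basophil markers (Cpa3, Mcpt8, Fcer1a and Ms4a2), again 4 of 4 in Monocytes, ran from 0.0345 to 0.0646 in MΦ_M0 cells, from 0.0279 to 0.0456 in Mreg_no IFN-γ cells and from 11.5 to 16.1 in Monocytes. T and NK cell markers, 8 of 9 in Monocytes, ran from 0.32 to 0.36 in MΦ_M0 cells, from 0.38 to 0.55 in Mreg_no IFN-γ cells and from 2.27 to 3.09 in Monocytes. B-cell markers were above background on all Monocytes arrays in 4 of 7 cases, with Cd79a, Pax5 and Ebf1 below it on all, and ran from 1.04 to 1.09 in MΦ_M0 cells, from 0.52 to 1.55 in Mreg_no IFN-γ cells and from 4.73 to 5.31 in Monocytes. Stromal and endothelial markers were higher in Monocytes too. Lower in Monocytes were dendritic cell markers, from 27.4 to 52.9 in MΦ_M0 cells, from 29.9 to 81.0 in Mreg_no IFN-γ cells and from 2.34 to 3.89 in Monocytes. Plasmacytoid dendritic cell markers (87.0 to 93.1, 39.9 to 44.1 and 17.95 to 36.8) and macrophage markers (1132 to 1215, 1129 to 1171 and 787 to 819) were lower there as well. The part of other cells in the Ly6 levels of Monocytes was not tested.

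The remaining stimuli moved few members past the threshold. With dexamethasone, Ly6d was lower by 2.06 ± 0.53 log2 units (adjusted p = 0.00607), in a comparison that crossed slides. Its levels were -5.20, -7.17 and -7.01 in MΦ_M2c cells against -3.88, -4.42 and -4.89 in MΦ_M0 cells, and 10.7% of all genes were lower. Since 1 of 3 MΦ_M2c arrays was well above background, the size of this difference rests on signals near background. The call was lost with normexp correction (-0.89, adjusted p = 0.0514), with only the compared groups fitted (adjusted p = 0.0531) and without series number 2 (adjusted p = 0.154). The other 5 members had positive differences with dexamethasone of 0.45 to 1.01 log2 units and none passed. IL-4 changed 0 of 6 members, against 12.6% of all genes; Ly6a was 0.68, -0.19 and 0.66 in MΦ_M2a cells and 0.69, 2.00 and 2.36 in MΦ_M0 cells, a difference of -1.30 ± 0.61 (limma, unadjusted p = 0.0427, adjusted p = 0.178), and Ly6c1 had a difference of -1.29 ± 0.56 (limma, unadjusted p = 0.0278, adjusted p = 0.135), the 2 members with an unadjusted p under 0.05 there. Without series number 2, whose MΦ_M2a array was the lowest for 5 of 6 members, the Ly6a difference was -0.86 (adjusted p = 0.583). The immunoglobulin coating changed 0 of 6 members, against 3.96% of all genes, with differences between -0.29 and 0.21 log2 units, and between -0.44 and 0.17 without series number 2. With unsorted starting cells, relative to sorted ones in Mreg culture, 0 of 6 rose, against 6.67% of all genes, and 0 of 6 fell, against 5.37%, with differences between -0.08 and 0.37. For Ly6a that last difference was 0.03 ± 0.61. At an unadjusted limma p under 0.05 the coating and the starting cells each had 0 members, and without series number 2 both again had 0 at the threshold, with differences between -0.32 and 0.60 for the starting cells.

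Other genes of the Ly6 and urokinase-receptor (uPAR) family on the array gave mixed directions. Of 39 listed, 35 had a probe and 20 were bright enough to test. Between MΦ_M1 and MΦ_M2a cells 6 of the 20 rose and 4 fell, against 26.7% of all genes that rose and 27.7% that fell. Ly6m rose by 1.78 log2 units (adjusted p = 1.94e-06) and Lynx1 by 1.05, while Ly6g6c fell by 1.36, Cd59a, an inhibitor of the complement membrane attack complex, by 1.38 and Bambi, a decoy receptor of the TGF-beta family, by 1.74. Cd59b was below background in MΦ_M1 cells, at least 1.32-fold lower, a call lost without series number 2 (adjusted p = 0.154), where 4 of the 20 rose and 3 fell. Under IFN-γ with LPS, 8 of the 20 were higher and 4 lower in Mreg_+LPS than in MΦ_M1 cells, against 29.4% and 25.1% of all genes. Among them Ly6g6c was 2.10 higher and Ly6g6e at least 6.1-fold higher. Without series number 2 the counts were 7 higher and 1 lower, and Ly6g6c was 2.20 higher. Ly6h was 1.80 higher with LPS in Mreg culture and 1.11 higher in M-CSF culture. Plaur, the urokinase receptor itself, was 3.08 higher in Mo-DC than in MΦ_IFN-γ cells and had a difference of -1.99 with dexamethasone. Cd177, a neutrophil antigen of the family, was at least 2213-fold lower in MΦ_M0 cells and was at least 2251-fold lower in Mreg_no IFN-γ cells than in Monocytes, the same direction as the neutrophil markers above. Cd59a was 4.24 higher in MΦ_M0 cells and 4.40 higher in Mreg_no IFN-γ cells than in Monocytes. Psca, Lypd3 and Lypd6 were also called at 2-fold or more in 1 or 2 comparisons each, and none of their probes was well above background on all arrays of those groups. Without series number 2 no call of Psca or Lypd3 was left. The values in this paragraph that are not folds are log2 differences that passed an adjusted p of 0.05 in the fit.

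Of the 15 IFN-γ pathway genes, 12 rose and 2 fell in MΦ_M1 relative to MΦ_M2a cells, against 26.7% and 27.7% of all genes. In Mreg_+LPS relative to MΦ_M1 cells 3 were higher and 7 lower, against 29.4% of all genes higher and 25.1% lower. Socs1 differed by -3.35 log2 units there (adjusted p = 1.66e-08), and by -3.0 without series number 2 (adjusted p = 0.000185).

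The genes whose 12 group means were most like those of a member were picked by Pearson correlation outside the family, as a description over 12 means. For Ly6a they were Tnfsf10, a death ligand, at 0.942, a probe without a gene name at 0.941 and Gbp9, an interferon-induced GTPase, at 0.940. Slco3a1 at 0.929 and BB200491 at 0.928 came next. For Ly6f they included Slco3a1 at 0.969, Cyld at 0.955, the immunoproteasome subunit gene Psmb9 at 0.954, Stat3 at 0.946 and Sp110 at 0.945. For Ly6i they were Cyld at 0.945, Bin3 at 0.928, Gdap10 at 0.925, Dcaf15 at 0.923 and Slco3a1 at 0.922. For Ly6c1 they were Tcstv3 at 0.916, Slco3a1 at 0.890, Gdap10 at 0.888, Tcstv1 at 0.886 and Zbp1, a sensor of nucleic acids, at 0.881. For Ly6e they were Tcstv3 at 0.920, Tcstv1 at 0.910, Ifi203 at 0.896, BB200491 at 0.895 and Trim12c at 0.889. For Ly6d they were Eral1 at 0.943, Phf5a at 0.933, Srrt at 0.932, BC018486 at 0.926 and Mllt1 at 0.921, none of which was among the 5 most like any other member.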

How the data were processed

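Agilent 1-colour mouse gene expression arrays were read for 36 samples. Per the file headers, the authors deposited scanner output of Feature Extraction 10.5.1.1 with processed signals as intensity values, background-subtracted by that software. The authors' deposited series table holds log2 values of the same arrays and served as an alternative. Uneven and outlier spots were left out, repeat spots averaged, and each array's 75th percentile subtracted from log2 intensity. Probes well above background on at least 3 arrays were kept, the brightest probe stood for a gene, and 17599 genes were fitted in limma 3.58.1 (R 4.3.3) with 1 mean per group over 36 arrays; Python 3.11.15 did the rest. "Adjusted p" is limma's, adjusted by Benjamini-Hochberg over all genes tested, with a threshold of 0.05. SE comes from that fit and SD from 3 arrays. A probe not well above background on every array of a group has only a bound there, set from the dimmest probe well above background.

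The members and lists were chosen with earlier results of these data known. Some genes of the pathway and marker lists are not reported here, and all counts leave them out. The text names every member, family genes called at 2-fold or more in a tested comparison, pathway genes on which a result turns, and the 5 genes most alike for each member. Series numbers pair arrays in the comparisons of Mreg_+LPS with Mreg, of MΦ_M1 with MΦ_IFN-γ, of MΦ_M2a, MΦ_M2c and MΦ_IFN-γ with MΦ_M0, of MΦ_M2b with MΦ_IFN-γ and of Mreg with Mreg_no IFN-γ, where every same-numbered pair deviated together (correlation above 0.1). Alternatives were another background correction, normalization, filter, probe rule and sample set, blocks for series number and slide, and each array left out. The number of arrays limits the precision. The fit was tested on simulated data.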

Additional observations from a re-analysis of the deposited data

Results flagged for a closer look

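An unnamed probe on the strand opposite to Ly6c, which the comparisons do not use, gave a signal in Monocytes. It lies at chr15:74872553-74872612 (mm8, plus strand) and overlaps the NM_010741 probe by 44 bases. Its level averaged -2.34 ± 0.07 log2 units relative to the 75th percentile in Monocytes (SD, n = 3), well above background on 3 of 3 arrays. It was well above background on 2 of 3 arrays of MΦ_M2b, on 1 of 3 in MΦ_IFN-γ and in Mo-DC, and on none in the other 8 groups, so 7 of 36 arrays in all. Monocytes was also the group with the highest level of the NM_010741 probe. Whether the probe reads RNA of the opposite strand was not tested. Groups of 3 arrays were not tested for outlying arrays.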

How the results depend on the processing

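Of 674 alternative values for the 38 tested differences of members that passed the threshold or reached 0.9 log2 units, 633 kept their direction and side of the threshold, 15 came to pass it, 26 no longer passed and 0 turned direction. The other 34 tested differences were smaller and had not passed; of their 669 alternative values 84 changed sign and 4 passed the threshold, among them Ly6e under LPS in Mreg culture, which turned. For LPS in Mreg culture, 1 member passed in place of 0 with quantile normalization and with the authors' series table (Ly6e, -0.46) and with the slide as a random or fixed block (Ly6f). For LPS in M-CSF culture, 2 members passed in place of 0 when only the compared groups were fitted. For Mreg_+LPS against MΦ_M1, 5 members passed in place of 3 with quantile normalization, with the series table and with the scan day that holds 2 arrays per group, and 1 passed without series number 2, an alternative chosen after seeing the data. For dexamethasone, 0 passed in place of 1 with normexp background correction and without series number 2. With only the compared groups fitted, dexamethasone still had 1 member past the threshold, but Ly6e (0.45) in place of Ly6d. Leaving out 1 array at a time gave 0 to 1 members for LPS in Mreg culture, 1 to 5 for Mreg_+LPS against MΦ_M1, 5 to 6 for Mo-DC, 4 to 5 for MΦ_M0 against Monocytes, and no other count for the remaining tested comparisons. The Ly6e call of MΦ_M0 against Monocytes was lost in 10 settings, with adjusted p between 0.0539 and 0.261 by limma. With normexp correction, the Ly6d calls were lost for Mreg_+LPS against MΦ_M1 (-0.39) and for Mo-DC (-0.28), and 3 described differences turned: Ly6d with IFN-γ in M-CSF culture to -0.29, and the difference of the IFN-γ responses to -0.47 for Ly6f and -0.32 for Ly6i. The cause was not tested.

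With the replicate block, Ly6f under LPS had 1.40 log2 units (adjusted p = 0.0597) in Mreg culture and 1.39 (adjusted p = 0.0684) in M-CSF culture, both by limma, and no member call changed. Over all genes, the counts of the tested comparisons and of the difference of the IFN-γ responses that moved by over 1.5 times were these. For unsorted against sorted cells 2119 genes became 768 with normexp, 3384 with the replicate block, 3578 and 3778 with the slide as a random and a fixed block, 136 without series number 2, 0 with only the compared groups, 911 without Mreg replicate 3 and 902 without Mreg_unpurified replicate 2. For the immunoglobulin coating 696 became 272 with normexp, 1103 with the block, 1300 and 1337 with the slide, 341 within the scan day, 120 without series number 2, 425 with only the compared groups and 245 to 413 without single arrays. For IL-4 2209 became 958 within the scan day, 1134 without series number 2, 1466 with only the compared groups and 1309 without MΦ_M2a replicate 1. For dexamethasone 3636 became 1871 without series number 2. For LPS in M-CSF culture 9014 became 13875 with no filter, and for the difference of LPS responses 6154 became 3870 with normexp. For the difference of the IFN-γ responses 290 became 38 with normexp, 180 with no filter, 472 with the replicate block and 47 without series number 2. Quantile normalization shifted the median of all genes by -0.18 log2 units for LPS in Mreg culture.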
